A study of Mus musculus with 2 samples.

Results

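Delta cells, the somatostatin-secreting cells of the pancreatic islet, were taken from 2 droplet single-cell RNA sequencing libraries of mouse islets. Barcodes (tags that mark the RNA of 1 droplet) were retained when they held 1500 or more unique molecular identifiers (UMIs, counts of distinct RNA molecules) and 500 or more genes, with mitochondrially encoded genes giving no more than 15% of the UMIs. One was taken as a delta cell when Sst, the somatostatin gene, made up at least 3% of its UMIs, with Ins1 and Ins2 (insulin) together below 10%, Gcg (glucagon) below 2% and Ppy (pancreatic polypeptide) below 10%. By this rule 1102 of 21729 kept barcodes were delta cells, 588 of 12062 in the HFD library and 514 of 9667 in the CD library. The HFD library came from islets of C57BL/6J mice, 13 weeks old, on a high-fat diet, the treatment labelled HFD. The CD library came from islets of C57BL/6J mice of the same age under the treatment labelled CD, which the labels do not expand. Both used islets released with collagenase P, picked by hand and dispersed with TrypLE, and no source used here states how many mice were pooled or used. The study asked which subpopulations of α, β and δ cells exist in a prediabetes model induced by the diet.

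Delta cells lie among the insulin-secreting β cells and glucagon-secreting α cells and restrain both of them locally through somatostatin, which acts on somatostatin receptors. They are themselves electrically excitable and release somatostatin in response to glucose, to urocortin 3 from β cells through the receptor Crhr2, and to ghrelin through the receptor Ghsr. The homeobox factor Hhex is required for their formation and maintenance in the mouse. PP cells secrete pancreatic polypeptide, and all 4 endocrine classes descend from progenitors that pass through a stage with the factor Neurog3.

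With 1 library for each diet there was no replicate check, no test between diets was made, and each difference below describes these 2 libraries. Delta cells had a median of 4725 UMIs and 1753 genes in HFD and 6365.5 UMIs and 2235 genes in CD, and they held 2898948 UMIs in HFD and 3550072 in CD. Their median mitochondrial share was 5.4% in HFD and 3.24% in CD. Free RNA, the RNA of broken cells that enters every droplet, was profiled in barcodes with 10 to 100 UMIs. From the levels of Ins1, Ins2 and Gcg, genes foreign to delta cells, free RNA made up an estimated 9.78% of delta cell UMIs in HFD and 6.2% in CD. The 2 libraries shared 26 barcodes among all kept cells and 0 among delta cells. The Y-linked gene Ddx3y was present in delta cells of both libraries, with 297 UMIs in HFD and 301 in CD.

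The values that chose the cells are given first, as a description. Sst made up between 3.11% and 31.8% of the UMIs of an HFD delta cell, with a median of 10.6%, and between 3.04% and 37.3% of a CD delta cell, with a median of 10.0%. The limit fell in a thinly filled range. With the other limits met, 8 HFD and 8 CD barcodes had an Sst share between 2% and 3%, against 19 HFD and 5 CD barcodes between 3% and 4%. The nearest barcodes had 3.11% inside and 2.97% outside the limit in HFD, and 3.04% inside and 2.99% outside in CD.

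The label was checked against 4 delta markers that the rule did not use. Rbp4, the retinol-binding protein, had 23.7 CPM in HFD barcodes with an Sst share below 0.1% that met the other limits, and 4634 CPM in HFD delta cells with 5% to 7.5% Sst. In CD it had 101 CPM below 0.1% Sst and 3804 CPM at 5% to 7.5% Sst. CPM here means UMIs of a gene, summed over the cells of a group, per 1000000 UMIs outside the 5 hormone genes Ins1, Ins2, Gcg, Sst and Ppy. Ly6h, a membrane-anchored protein of the Ly6 family, had 1.58 CPM below 0.1% Sst and 463 CPM at 5% to 7.5% Sst in HFD, and 1.11 and 339 CPM in CD. Hhex had 72.1 CPM below 0.1% Sst and 309 CPM at 5% to 7.5% Sst in HFD, and 69.7 and 290 CPM in CD. Ppp1r17, an inhibitor of protein phosphatases studied mostly in brain, had 0.451 CPM below 0.1% Sst and 116 CPM at 5% to 7.5% Sst in HFD, and 0.555 and 278 CPM in CD. All 4 markers stood higher in these delta cells than in barcodes below 0.1% Sst, by the smallest factor for Hhex, and the name delta cell was kept. The barcodes below 0.1% Sst met the other hormone limits and so held none of the β, α and PP cells that are compared further on. The few barcodes with 1% to 3% Sst, 17 in HFD and 12 in CD, carried intermediate levels, among them 1981 CPM of Rbp4 in HFD and 2672 CPM in CD.

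**Figure D1:**
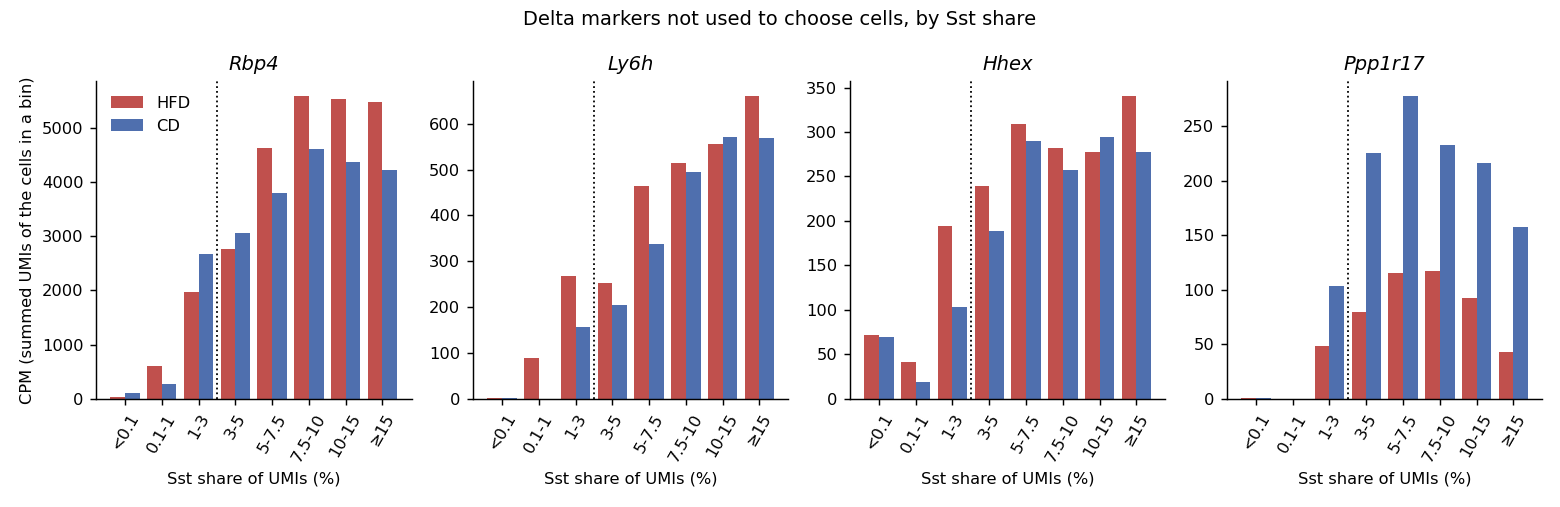
Summed level (CPM, vertical axis) of Rbp4, Ly6h, Hhex and Ppp1r17 in barcodes that met the insulin, glucagon and pancreatic polypeptide limits, binned by the Sst share of UMIs (horizontal axis). Red bars are HFD and blue bars CD, and the dotted line is the 3% limit. All 4 genes are lower below 1% Sst than in any bin past the limit, and Ppp1r17 is lower in HFD than in CD in every bin above 1% Sst.

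Delta cells made up 4.87% of kept barcodes in HFD (95% exact binomial interval 4.5 to 5.27) and 5.32% in CD (4.88 to 5.78). The difference, HFD minus CD, was -0.44 percentage points, with an interval of -1.04 to 0.15 that includes 0. Among cells of the 4 endocrine classes the share was 5.88% of 9997 in HFD and 6.45% of 7966 in CD. These intervals, like all others here, cover counting error only, and TrypLE dispersal and the recovery of cells in droplets can also set such shares. A further 130 HFD and 129 CD barcodes had at least 3% Sst but failed another hormone limit. They had a median of 9214 UMIs in HFD and 14898 in CD, against 4725 and 6366 in the delta cells of the same libraries.

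Somatostatin was the leading transcript of the delta cells, with 11.2% of all their UMIs in HFD and 10.5% in CD. The Sst gene lies on chromosome 16 (23889573 to 23890958, minus strand, mm10). Its promoter holds the element through which cyclic AMP drives somatostatin transcription, and the 250 bases before the RefSeq start (GRCm38.p6, chr16:23890845-23891094, minus strand) are shown for that reason, with both overlapping matches to TGACG or its complement CGTCA in capitals. Below it stand the 250 bases before the second RefSeq start of Rbp4 (chr19:38124812-38125061, minus strand), the other secreted product that set these cells apart, with the match to TATAAA in capitals.

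Sst: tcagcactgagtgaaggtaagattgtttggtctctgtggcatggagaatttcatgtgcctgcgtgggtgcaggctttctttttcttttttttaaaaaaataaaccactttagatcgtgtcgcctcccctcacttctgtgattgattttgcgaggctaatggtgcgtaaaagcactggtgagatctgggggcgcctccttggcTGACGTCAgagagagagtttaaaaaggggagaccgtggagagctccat
Rbp4: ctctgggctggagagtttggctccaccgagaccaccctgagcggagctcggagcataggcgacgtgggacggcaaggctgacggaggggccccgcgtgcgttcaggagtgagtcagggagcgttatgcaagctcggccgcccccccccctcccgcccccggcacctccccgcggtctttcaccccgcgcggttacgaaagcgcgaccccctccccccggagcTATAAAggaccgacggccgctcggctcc

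The Sst matches began 48 and 45 bases before the start and together spelled the palindrome. The Rbp4 match began 28 bases before the start, and the window before the first RefSeq start of Rbp4 (chr19:38125322-38125571, minus strand) held 0 matches to TATAAA. Searched on both strands, TGACG was present in 17.8% of the 32851 RefSeq promoter windows of the same length and TATAAA in 12.4%, and a match here is a description of the letters only. Ly6h and Ppp1r17 had no entry and are named only.

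Delta cells were next set against β cells (7104 in HFD, 5967 in CD), α cells (1840 in HFD, 1198 in CD) and PP cells (465 in HFD, 287 in CD), cut from hormone shares of the same libraries. Of 8962 genes with at least 50 UMIs in delta cells, 276 (3.08%) were at least 2-fold higher in delta cells than in each of the other 3 classes in both libraries. Of 8308 genes with enough UMIs for the reverse, 29 (0.349%) were at least 2-fold lower than in each of them. Against 1 class at a time, among the same 8962 genes, 790 (8.81%) were at least 2-fold higher and 194 (2.16%) lower than in β cells. Against α cells 799 (8.92%) were higher and 89 (0.993%) lower, and against PP cells 652 (7.28%) higher and 58 (0.647%) lower. Genes with fewer than 50 UMIs in delta cells were left out of these single-class counts. That filter removes genes low in delta cells, so the higher and lower counts cannot be weighed against each other. Because the classes were cut from the same cells, these contrasts are a description without a test. They depend on the scale: per 1000000 of all UMIs, hormones included, 798 genes were higher and 14 lower.

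Rbp4 had 5229 CPM in delta cells in HFD and 4224 in CD, against 1059 and 1129 CPM in α cells, 401 and 374 CPM in PP cells and 123 and 138 CPM in β cells of HFD and CD. Ly6h had 530 CPM in HFD delta cells and 483 in CD delta cells, and at most 23.6 CPM in any other class. Hhex had 291 CPM in HFD delta cells and 276 in CD delta cells, and at most 16 CPM elsewhere. Ppp1r17 had 92.4 CPM in HFD delta cells and 227 in CD delta cells, and at most 5.7 CPM elsewhere. All 4 markers were therefore among the genes at least 2-fold over each class, and as they had been picked as delta markers this is no independent evidence for the name. Rbp4 lies on chromosome 19 (38116629 to 38125281, minus strand), Hhex on chromosome 19 (37434810 to 37440731, plus strand), Ly6h on chromosome 15 (75551268 to 75567255, minus strand) and Ppp1r17 on chromosome 6 (56017497 to 56032689, plus strand), in mm10 coordinates of GENCODE M21.

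The 20 genes furthest above all 3 other classes had varied roles, and Ambp, Ehf, Nebl, Ncam2, Gpm6a, Mef2c and Ctsh were among them beside those given here. Neurog3, the progenitor factor, had 76.3 CPM in HFD delta cells and 52.7 in CD delta cells, against at most 2.56 CPM in β, α or PP cells of either library. Syt1, a calcium sensor of vesicle release, had 125 CPM in HFD delta cells and 126 in CD delta cells, and at most 7.99 CPM elsewhere. Gap43, a growth cone protein, had 194 CPM in HFD delta cells and 113 in CD delta cells, and at most 11.2 CPM elsewhere. Dpp6, an auxiliary subunit of voltage-gated potassium channels, had 472 UMIs in HFD delta cells and 446 in CD delta cells. Genes were ranked on both libraries together, and their place above the other classes in each was fixed by that choice.

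Genes of secreted and surface proteins are given next. Bmp3, a secreted factor of the TGF-β family, had 78.4 CPM in HFD delta cells and 51.6 in CD delta cells, and at most 3 CPM elsewhere. Ptn, the growth factor pleiotrophin, had 55.1 CPM in HFD delta cells and 56.4 in CD delta cells. Spock3, a secreted proteoglycan, had 80.1 CPM in HFD delta cells and 39.8 in CD delta cells, and at most 1.59 CPM elsewhere. Of 17 measured adhesion and cell surface genes, 4 were at least 2-fold over every other class in both libraries, namely Ly6h, Cd24a, Ptprz1 and Efna5. Cd24a, a small glycoprotein anchored in the membrane, had 568 CPM in HFD delta cells and 363 in CD delta cells, and at most 22.8 CPM elsewhere. Fam159b had 991 CPM in HFD delta cells and 992 in CD delta cells, and at most 71.9 CPM elsewhere, a log2 ratio of HFD over CD of 0.00.

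**Figure D2:**
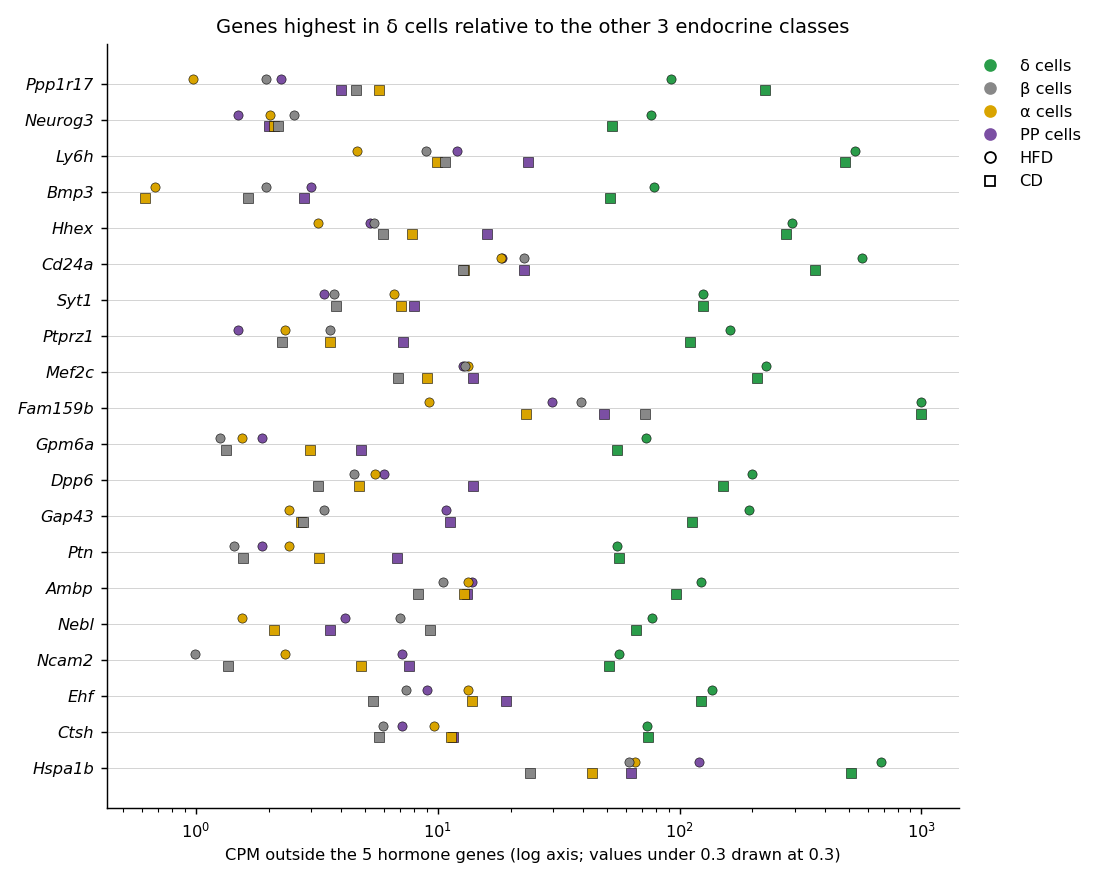
Level (CPM outside the 5 hormone genes, log axis) of the 20 genes highest in delta cells relative to β, α and PP cells. Circles are HFD and squares CD, green marks delta cells, and every green point lies to the right of all other points of its gene. The gap is widest for Ppp1r17, with 92.4 CPM in HFD and 227 in CD delta cells, and narrowest for Hspa1b, with 677 CPM in HFD and 512 in CD delta cells against at most 120 CPM elsewhere.

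Among hormone and nutrient receptors, 3 of 13 measured genes were at least 2-fold over every other class, and they include the receptors through which ghrelin and urocortin 3 reach delta cells. Ghsr, the ghrelin receptor, had 49 UMIs (20.8 CPM) in HFD and 26 UMIs in CD delta cells, and at most 0.459 CPM elsewhere. Crhr2, the urocortin 3 receptor, had 24 UMIs in HFD and 30 UMIs in CD delta cells, or 10.2 and 10.1 CPM, and at most 0.4 CPM elsewhere. Ffar4, the long-chain fatty acid receptor also called GPR120, just missed the limit, with 87.3 CPM in HFD delta cells and 116 in CD delta cells against 44.6 and 51.2 CPM in PP cells of HFD and CD. Ffar1, a fatty acid receptor of β cells, had 10 UMIs in HFD and 8 in CD delta cells, which was 1.72 times what free RNA would bring in the library with the higher level. The incretin receptor gene Gipr had 40.7 CPM in HFD delta cells and 46.9 in CD delta cells, below the 77.8 CPM of HFD and 103 CPM of CD β cells.

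Channels and glucose sensing genes were partly shared with β cells. Of 20 measured glucose sensing and ion channel genes, 3 were at least 2-fold over every other class, namely Cacna1h, Scn3b and Kcnb2. Cacna1h, a low-voltage-activated T-type calcium channel, had 40.3 CPM in HFD delta cells and 35.8 in CD delta cells, and at most 3.6 CPM elsewhere. Scn3b, a sodium channel β subunit, had 77.1 CPM in HFD delta cells and 65.5 in CD delta cells. The KATP channel gene Abcc8, which encodes the sulfonylurea receptor, had 506 CPM in HFD delta cells and 460 in CD delta cells, close to its 463 and 380 CPM in β cells of HFD and CD. Slc2a2, the glucose transporter GLUT2, had 16.5 CPM in HFD delta cells and 15.5 in CD delta cells, only 1.29 times what free RNA would bring, against 614 and 630 CPM in β cells.

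Of 14 measured islet transcription factors, Hhex alone was at least 2-fold over every other class. Isl1, a LIM homeobox factor shared by all islet endocrine cells, came near with 579 CPM in HFD delta cells and 553 in CD delta cells, against at most 292 CPM elsewhere. Pdx1, the factor shared by β and delta cells, had 76.3 CPM in HFD delta cells and 75.6 in CD delta cells, below its 99.4 and 89.6 CPM in β cells of HFD and CD and above its 8.43 and 7.31 CPM in α cells. The β factor Nkx6-1 had 32.2 CPM in HFD delta cells and 28.4 in CD delta cells, against 372 and 279 CPM in β cells. Both genes were below their β cell levels in both libraries, Nkx6-1 by more.

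The secretory machinery was largely shared with the other classes. Of 14 measured prohormone processing and granule genes, only Chgb, which encodes the granule protein chromogranin B, was at least 2-fold over every class, with 3687 CPM in HFD delta cells and 4181 in CD delta cells. Of 14 measured exocytosis genes, only Rab3b, a small GTPase of secretory vesicles, was, with 153 CPM in HFD delta cells and 150 in CD delta cells. Pcsk2, a convertase that cuts prohormones, had 3071 CPM in HFD delta cells and 2339 in CD delta cells, within the range of the other classes. Pcsk1, the other convertase, had 42 CPM in HFD delta cells and 29.7 in CD delta cells, against 364 and 268 CPM in β cells of HFD and CD.

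The genes lowest in delta cells relative to all 3 other classes included Cadps, which primes granules for release and is broadly expressed in endocrine cells. Cadps had 7.2 CPM in HFD delta cells and 7.09 in CD delta cells, 1.79 times what free RNA would bring, and at least 95.9 CPM in every other class. Ddc, the decarboxylase that makes dopamine and serotonin, had 12.7 CPM in HFD delta cells and 12.8 in CD delta cells, and at least 50.8 CPM elsewhere. Wnt4, a secreted signalling protein, had 80.5 CPM in HFD delta cells and 59.7 in CD delta cells, and at least 312 CPM elsewhere. Ttr, the thyroid hormone carrier transthyretin, had 457 CPM in HFD delta cells and 312 in CD delta cells, which was 0.96 times what free RNA would bring. For Cadps and Ttr, part or all of the remaining level in delta cells is thus of the size that free RNA gives.

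Other islet peptides were present in delta cells to different degrees. Ins1, Ins2 and Gcg stood at 11%, 9.78% and 9.37% of their free RNA level in HFD delta cells, and at 6.24%, 5.62% and 6.2% in CD delta cells. The 3 genes thus stood at like percentages within each library. Iapp, the amyloid peptide released with insulin, stood at 67.9% of its free RNA level in HFD delta cells and 59.8% in CD delta cells, several times those percentages. Iapp had 34787 CPM in HFD delta cells and 38602 in CD delta cells, below β cells (178097 and 192889 CPM in HFD and CD) and above α cells (4832 and 5753 CPM). Pyy, which encodes peptide YY, stood at 640% of its free RNA level in HFD delta cells and 639% in CD delta cells. Ppy, which the rule caps at 10%, stood at 174% in HFD delta cells and 208% in CD delta cells. The free RNA share was estimated from Ins1, Ins2 and Gcg themselves, so their levels cannot be read against it, whereas Iapp, Pyy and Ppy stood above it.

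Among the islet hormones, Ppy varied most over delta cells relative to its median. Its share of UMIs had a 5th percentile of 0.141%, a median of 3.07% and a 95th percentile of 7.96% in HFD delta cells, and 0.105%, 2.74% and 8.27% in CD delta cells. The interquartile range was 1.49 times the median for Ppy in HFD and 1.52 times in CD, against 0.527 and 0.507 times for Sst and 0.626 and 0.599 times for Pyy. Between 5% and 10% lay 160 HFD and 133 CD delta cells, and a further 54 HFD and 36 CD barcodes with at least 3% Sst were left out for their Ppy share alone. The upper end of the Ppy range in delta cells is therefore set by the rule. Spearman's rho between the Ppy share and the number of UMIs was 0.02 over the HFD cells and 0.09 over the CD cells, a description over cells of 1 library each.

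**Figure D3:**
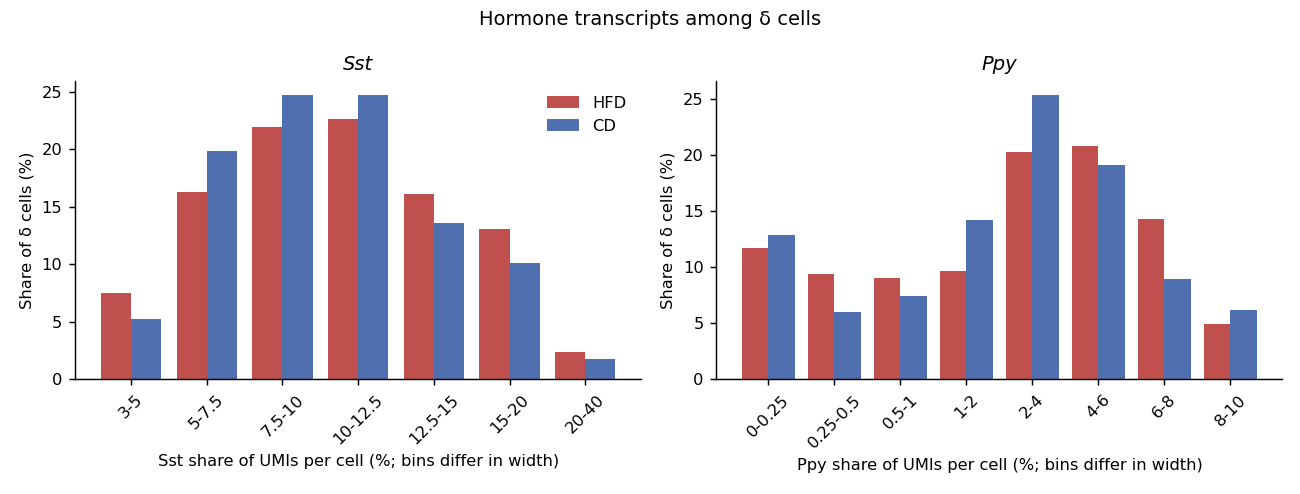
Share of delta cells (vertical axis) in bins of the Sst share (left) and the Ppy share (right) of each cell's UMIs, with HFD in red and CD in blue. Sst centres on medians of 10.6% in HFD and 10.0% in CD, whereas Ppy runs from near 0 to the 10% limit, with medians of 3.07% in HFD and 2.74% in CD.

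The 25% of delta cells with the highest Ppy share were set against the 25% with the lowest, with 147 cells in each group in HFD and 128 in CD. Of 6477 genes with enough UMIs, 1 was at least 2-fold higher and 6 at least 2-fold lower in the high group in both libraries with counting intervals on one side of 1. Ptn was the gene that was higher, with 78.6 CPM in the high and 33.7 CPM in the low group in HFD and 80.9 and 28.7 CPM in CD. Sparc, Timp3, Rgs5 and Mgp, genes of stromal and vascular cells, were among those that were lower, and Tmem101 and Prss23 were the others. The median Sst share was lower at the high Ppy end, with 9.35% in the high and 11.5% in the low group in CD, and in the same direction in HFD. At this depth few other genes separated the delta cells with most Ppy from those with least. Ppp1r17 separated them in 1 library alone, with 152 CPM in the high and 50.6 CPM in the low group in HFD and 219 and 269 CPM in CD.

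Ordering delta cells by Sst separated cells by genes of other cell types. The 25% of cells with the highest Sst share had 4 genes higher and 37 lower than the lowest 25%, of 6614 genes. Those lower included Cd74 and H2-Aa, which present antigen in immune cells, and Kdr, Flt1 and Plvap, which mark endothelial cells. Cd74 had 3 UMIs in the high and 130 UMIs in the low group in HFD, and 5 and 210 UMIs in CD. Kdr had 0 UMIs in the high and 82 UMIs in the low group in HFD, and 0 and 32 UMIs in CD. A cluster of 4 HFD and 2 CD delta cells, described below, had 2236 CPM of Kdr, and the other delta cells had 0.949 CPM. Ly6h was higher at the other end, with 657 CPM in the high and 392 CPM in the low group in HFD and 603 and 304 CPM in CD. The lowest 25% had medians of 5.98% Sst in HFD and 6.03% in CD. Delta cells with at least 5 UMIs from 55 endothelial, macrophage, mesenchymal, acinar, Schwann, lymphocyte and class II genes numbered 61 in HFD and 111 in CD, a limit chosen after the data were seen and easier to reach in the deeper CD library.

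After each delta cell was thinned to 1000 UMIs outside the hormone genes, the variance of a gene's UMIs over its mean was compared between genes. Counting alone gives 1. Over 1330 genes with a mean of at least 0.1 UMIs, the median of the lower of the 2 libraries was 0.986. Outside the 5 hormone genes, Pyy had 11.4 in HFD and 11.9 in CD, and Malat1, a nuclear noncoding RNA, had 11.5 in HFD and 7.16 in CD. Among genes with a lower mean, Hspb1, which encodes the small heat shock protein HSP25, had 2.98 in HFD and 3.25 in CD, and Hspa1a, of the HSP70 family, had 2.52 in HFD and 3.13 in CD. The transcription factor genes Fos and Jun, which are induced within minutes by stimulation and by tissue dissociation, had 2.28 and 2.29 in HFD and 2.35 and 2.76 in CD. The delta marker Rbp4 had 2.68 in HFD and 2.01 in CD. Genes were ranked by the lower of the 2 libraries, with mitochondrially encoded, ribosomal protein and unnamed genes left out. The 15 with the highest variance over mean also held Iapp, Resp18, Chga and Chgb, which are peptide and granule genes, the ubiquitin gene Ubb, Hspa1b, Dnajb1 and Junb. At equal relative spread this measure rises with the mean, so it favours abundant genes. The top 5% of cells held 10.8% of Pyy UMIs in HFD and 10.9% in CD. For Hspb1 they held 36.5% and 44.7%, a share that counting raises in genes with a low mean. The lowest of them, Chgb, had 1.58 in HFD and 1.79 in CD.

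Ppp1r17 was more uneven than Hhex. At 2000 UMIs a cell, a depth that left out 22 HFD and 14 CD delta cells, its variance over mean was 1.72 in HFD and 2.26 in CD, against 1.13 and 1.16 for Hhex. The mean per cell at that depth was 0.175 UMIs in HFD and 0.454 in CD for Ppp1r17, and 0.611 and 0.582 for Hhex.

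Leiden clustering of the delta cells alone gave 5 groups, described here by their leading genes. The largest, with 230 HFD and 201 CD cells, was led by Npas4, Hspb1, Egr4 and Arc, genes of neuronal activity and heat shock. The next, with 213 HFD and 195 CD cells, was led by Dcn and Mgp, and another, with 132 HFD and 96 CD cells, by Ccl5, Cd52 and Cd74. A group of 4 HFD and 2 CD cells was led by the endothelial genes Kdr and Rgcc and had a median of 8845 UMIs. The last, with 9 HFD and 20 CD cells, was led by the acinar gene Ctrb1. Leading genes were ranked on UMIs summed over all cells of a group, so a few cells can set them. Dcn had 57.2 CPM in the group it led. Ccl5 had 91.4 CPM in its group, with nearly all Ccl5 UMIs of delta cells in HFD although the group held CD cells too. The share of a group's cells that held its leading genes was not measured. No group was led by delta marker genes, and none was given a subtype name.

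Between the diets, delta cells were compared gene by gene. A gene was called when HFD and CD differed at least 1.5-fold and the exact 95% counting interval of the ratio lay on one side of 1. Of 8962 genes, 830 (9.26%) were called, 484 (5.4%) higher and 346 (3.86%) lower in HFD. With mitochondrially encoded genes also left out of the total, the split was 618 higher and 257 lower. The median log2 ratio over all 8962 genes was -0.01. All endocrine classes come from the same 2 libraries, so a difference seen in several classes is not a repeat of it.

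The marker and hormone levels of delta cells were similar between diets apart from Ppp1r17. Summed over cells, Sst was 11.2% of UMIs in HFD and 10.5% in CD. The log2 ratio of HFD over CD was 0.31 for Rbp4 (interval 0.27 to 0.34), 0.13 for Ly6h (0.02 to 0.24) and 0.08 for Hhex (-0.07 to 0.23), none of them past 1.5-fold. Ppp1r17 had 218 UMIs in HFD and 671 in CD delta cells, a log2 ratio of -1.29 (-1.52 to -1.07). In the plot of markers by Sst share, Ppp1r17 was lower in HFD in all 5 bins of delta cells, from 79.7 against 226 CPM at 3% to 5% Sst to 43.2 against 158 CPM above 15% Sst. Of the 4 markers used to name delta cells, 1 was thus called, lower in HFD, where 3.86% of all genes were called lower.

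Heat shock and immediate early genes had more calls higher than lower in HFD delta cells. Of 13 measured heat shock chaperone genes, 3 were called higher and 0 lower, against 5.4% and 3.86% of all genes. Their median log2 ratio was 0.39. Dnajb1, the HSP40 co-chaperone, had 1083 CPM in HFD and 556 CPM in CD delta cells, a log2 ratio of 0.96 (0.87 to 1.05). Hsph1, a chaperone of the HSP110 family, had 222 CPM in HFD and 115 CPM in CD. Dnajb1 and Hsph1 were higher in HFD in the other classes as well. Their log2 ratios were 0.93 and 0.68 in β cells, 1.155 and 0.87 in α cells and 1.345 and 0.92 in PP cells. Hspb1 had 871 CPM in HFD and 592 CPM in CD, a log2 ratio of 0.56 (0.46 to 0.65), short of 1.5-fold. In both libraries Hspb1 was far above β cells, which had 29.9 CPM in HFD and 20.3 CPM in CD. Hspa1a and Hspa1b are near-identical copies, between which counting could have divided reads, so their single values are uncertain.

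Of 17 measured immediate early and dissociation genes, 6 were called higher and 1 lower, against 5.4% and 3.86% of all genes. Their median log2 ratio was 0.41. Nr4a1, an orphan nuclear receptor, had 100.4 CPM in HFD and 44.6 CPM in CD delta cells, a log2 ratio of 1.17 (0.86 to 1.49). Atf3, a stress-induced factor, had 69.9 CPM in HFD and 28.7 CPM in CD delta cells, a log2 ratio of 1.28 (0.9 to 1.68), but 0.31 (-0.36 to 0.97), no longer called, with insulin below 5% and Ppy below 2%, which left 163 HFD and 190 CD cells. Egr1 had 1873 CPM in HFD and 1167 CPM in CD. Fos, at 3571 CPM in HFD and 3054 CPM in CD, and Jun, at 3190 and 3057 CPM, differed by less than 1.5-fold. Gadd45b was the gene called lower, with 112 CPM in HFD and 230 CPM in CD. Atf3 and Nr4a1 were higher in HFD in the other classes as well, with log2 ratios of 1.62 and 1.63 in β cells, 2.17 and 1.17 in α cells and 1.91 and 1.06 in PP cells. The genes of this list respond to enzymatic dispersal of tissue as well as to stimulation in living islets, and the part of dispersal was not tested.

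To show what such genes carry near their start, the 250 bases before the RefSeq start are given for Nr4a1 (GRCm38.p6, chr15:101266596-101266845, plus strand), with TGACG or CGTCA in capitals, and for Hspb1 (chr5:135887669-135887918, plus strand), with GAANNTTC, 2 facing units of the heat shock element, in capitals.

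Nr4a1: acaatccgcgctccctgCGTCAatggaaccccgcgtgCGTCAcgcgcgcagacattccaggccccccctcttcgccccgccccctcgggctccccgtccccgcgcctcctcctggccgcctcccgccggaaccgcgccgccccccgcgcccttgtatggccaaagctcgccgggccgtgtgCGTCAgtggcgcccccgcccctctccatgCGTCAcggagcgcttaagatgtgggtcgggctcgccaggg
Hspb1: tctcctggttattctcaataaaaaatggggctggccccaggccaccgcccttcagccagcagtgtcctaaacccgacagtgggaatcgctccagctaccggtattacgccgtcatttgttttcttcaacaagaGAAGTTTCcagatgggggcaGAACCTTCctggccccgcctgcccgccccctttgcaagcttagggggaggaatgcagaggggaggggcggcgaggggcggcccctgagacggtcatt

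Nr4a1 held 4 matches to TGACG on either strand, which began 233, 213, 69 and 40 bases before the start. Hspb1 held 2 matches to GAANNTTC, which is its own complement, at 117 and 97 bases. Of the heat shock list, 9 of 13 genes had a RefSeq window, and 6 of these held GAANNTTC, against 6.69% of all windows. Of the immediate early list, 16 of 19 genes had one, and 9 of these held TGACG, against 17.8% of all windows. A gene was counted when any of its windows held the match, whereas the shares are of single windows, so counts and shares are unlike measures. A match is a description of the letters in this window.

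**Figure D4:**
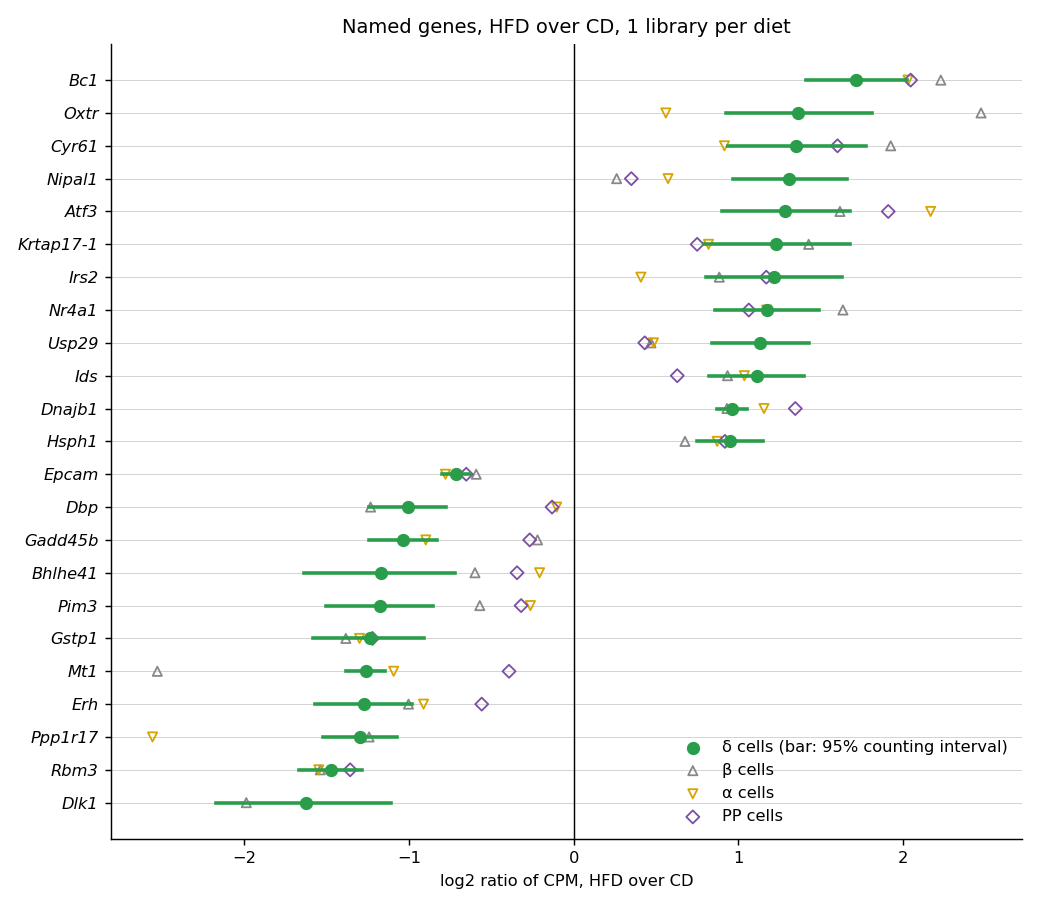
Log2 ratio of CPM, HFD over CD, for the genes named as higher and as lower in HFD delta cells. Filled green points and bars are delta cells with their 95% counting interval, and open symbols are β, α and PP cells of the same 2 libraries. No open symbol with at least 50 UMIs lies on the other side of 0 from its green point, and Nipal1, Usp29, Pim3 and Bhlhe41 have the 3 other classes nearer to 0 than the delta interval.

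Other genes furthest higher in HFD delta cells fell into no single list. Bc1, a short noncoding RNA known from neurons that RNA polymerase III transcribes, had 136 CPM in HFD and 41.5 CPM in CD, a log2 ratio of 1.71 (1.41 to 2.02), and was higher in HFD in the other classes too, with log2 ratios of 2.23 in β, 2.03 in α and 2.04 in PP cells. Oxtr, the oxytocin receptor, had 57.2 CPM in HFD and 22.3 CPM in CD, a log2 ratio of 1.36 (0.93 to 1.81), against 2.47 in β, 0.56 in α and 1.20 in PP cells, the last from 27 UMIs in HFD and 11 in CD. Nipal1, a magnesium transporter, had 90.3 CPM in HFD and 36.5 CPM in CD, a log2 ratio of 1.31 (0.97 to 1.66), whereas its log2 ratio was 0.26 in β cells, 0.57 in α cells and 0.35 in PP cells. Usp29, an imprinted gene, had 113 CPM in HFD and 51.6 CPM in CD, a log2 ratio of 1.13 (0.84 to 1.43), against 0.47, 0.48 and 0.43 in β, α and PP cells. The difference between classes was not tested for any of these genes. Cyr61, Ids and Krtap17-1 completed the group, with log2 ratios between 1.11 and 1.35, and Krtap17-1 was at 0.63 with an Sst share of at least 10%.

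Of 15 measured genes of insulin and IGF signalling, 5 were called higher and 0 lower, where 5.4% of all genes were called higher and 3.86% lower, and the median log2 ratio was 0.21. Irs2, the insulin receptor substrate, had 61 CPM in HFD and 26.3 CPM in CD delta cells, a log2 ratio of 1.21 (0.81 to 1.63). It was higher in HFD in the other classes as well, with log2 ratios of 0.88 in β, 0.41 in α and 1.17 in PP cells. Foxo1, a factor that insulin signalling holds out of the nucleus, had 69.5 CPM in HFD and 33.1 CPM in CD, and Pik3r1, a regulatory subunit of phosphoinositide 3-kinase, had 68.7 and 37.1 CPM. The receptor gene Insr had 46.2 CPM in HFD and 35.4 CPM in CD, a log2 ratio of 0.38 (-0.02 to 0.78) that did not meet the rule. Igfbp3 and Igfbp5, the other members called, are secreted binding proteins of IGF. Igfbp3 had 59 UMIs in HFD and 48 in CD. The 25% of delta cells with the lowest Sst share held 51 of these in HFD and 41 in CD. In the endothelial group of 4 HFD and 2 CD cells Igfbp3 had 1847 CPM, and in the other delta cells 2.28 CPM.

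Receptor genes of delta cells were called in both directions, with 4 of 13 higher and 1 lower, against 5.4% and 3.86% of all genes. Ghsr, given above as UMIs, had a log2 ratio of 1.24 (0.53 to 1.99), and Crhr2 one of 0.01 (-0.83 to 0.83), an interval wide enough to hold a 1.5-fold difference either way. Gria2, a subunit of AMPA-type glutamate receptors, had 194 CPM in HFD and 112 CPM in CD. Adra2a, the α2A adrenergic receptor, had 54 UMIs in HFD and 33 in CD, and Casr, the calcium-sensing receptor, 31 and 21. Gria3, another AMPA receptor subunit, was lower in HFD, with 36 UMIs against 72 in CD. Several of these calls rest on few UMIs. Igf1r, Sstr3 and Gabbr1, receptors for IGF1, somatostatin and GABA, were not called, with log2 ratios of 0.33, 0.43 and -0.43. Of the 20 measured channel genes, 0 were called either way.

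Of 14 measured transcription factors, Mafa alone was called, where 9.26% of all genes were called either way. Mafa stood at 1.97 times what free RNA would bring. Ucn3, the β cell peptide that acts on delta cells, had 53 UMIs in HFD and 15 UMIs in CD delta cells, at 2.08 times the free RNA level, and β cells had 481 CPM in HFD and 262 CPM in CD. The free RNA share of delta cells was also higher in HFD, at 9.78% against 6.2% in CD, and its part in these calls was not tested. The factors at the core of delta cells differed little, with log2 ratios of 0.08 for Hhex, 0.07 for Isl1 and 0.01 for Pdx1. Etv1, an ETS family factor, had 529 CPM in HFD and 362 CPM in CD, and Pax6, a factor of all islet endocrine cells, had 442 and 327 CPM, neither past the rule. Neurod1, Nkx2-2, Insm1, Rfx6, Foxa2, Myt1 and St18, factors of endocrine differentiation, had log2 ratios between -0.05 and 0.51.

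**Figure D5:**
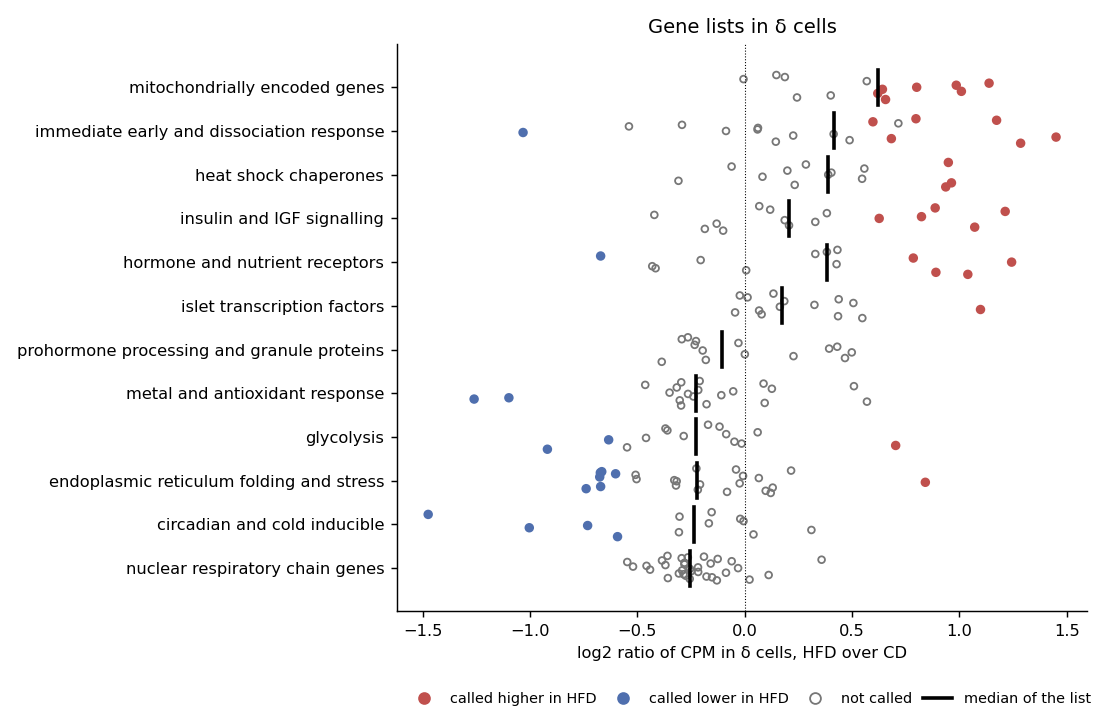
Log2 ratio of CPM in delta cells, HFD over CD (horizontal axis), for the measured members of 12 gene lists. Filled red points were called higher in HFD, filled blue points were called lower, open points were not called, and the black bar is the median of the list. The medians run from 0.62 for mitochondrially encoded genes to -0.26 for nuclear respiratory chain genes.

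The 2 genomes that encode the respiratory chain differed in sign. Of 13 mitochondrially encoded genes, 7 were called higher and 0 lower, against 5.4% and 3.86% of all genes. Their median log2 ratio was 0.62, and mt-Co3 had 15362 CPM in HFD and 7632 CPM in CD. Of 33 measured nuclear respiratory chain genes, 0 were called either way, with a median of -0.26 and 3 of them above 0. The mitochondrial share of UMIs was a median of 5.4% in HFD and 3.24% in CD delta cells, and mt-Co3 in delta cells was 2.78 times what free RNA would bring. The median share was higher in HFD in the other classes too. It was 3.78% in HFD and 2.64% in CD β cells, 4.83% and 2.76% in α cells, and 3.31% and 1.96% in PP cells. The parts of cell damage and of free RNA in the difference were not tested. Of 14 measured glycolysis genes, 1 was called higher and 2 lower, with a median of -0.23.

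Endoplasmic reticulum folding genes had more calls lower than higher in HFD delta cells. Of 24 measured, 6 were called lower and 1 higher, against 3.86% and 5.4% of all genes. Their median log2 ratio was -0.22. Pdia6, a protein disulfide isomerase, had 223 CPM in HFD and 355 CPM in CD, Manf, a secreted stress protein of the reticulum, had 287 and 458 CPM, and Creld2 had 39.8 and 66.5 CPM. Hspa5, the chaperone BiP, had 670 CPM in HFD and 950 CPM in CD, a log2 ratio of -0.5 (-0.59 to -0.42), short of 1.5-fold. The gene called higher was Ero1lb, a β cell oxidase at 1.84 times the free RNA level in delta cells.

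Among the other genes furthest lower in HFD delta cells, Rbm3, an RNA-binding protein induced by cold, had 125 CPM in HFD and 346 CPM in CD, a log2 ratio of -1.48 (-1.67 to -1.29). It stood at nearly the same ratio in β, α and PP cells, with log2 values of -1.54, -1.55 and -1.36. Of 12 measured circadian and cold-inducible genes, 4 were called lower and 0 higher, against 3.86% and 5.4% of all genes. Dbp, an output gene of the clock, had 90.7 CPM in HFD and 182 CPM in CD. Dlk1, an imprinted membrane protein, had 39 UMIs in HFD and 151 UMIs in CD delta cells, a log2 ratio of -1.62 (-2.17 to -1.11), and it was at most 2.4 CPM in every other class. Its UMIs came from 2.55% of HFD and 5.64% of CD delta cells, and with an Sst share of at least 10% the log2 ratio was -0.61 (-1.27 to 0.02), no longer called. Mt1, the metallothionein that binds zinc, had 336 CPM in HFD and 805 CPM in CD, at 3.31 times the free RNA level, and in β cells its log2 ratio was -2.53. Gstp1, Erh, Pim3, Bhlhe41 and Epcam were also named, with log2 ratios between -0.71 and -1.27. Pim3 had a log2 ratio of -1.17 (-1.5 to -0.85), against -0.57, -0.26 and -0.32 in β, α and PP cells, and Bhlhe41 one of -1.17 (-1.64 to -0.72), against -0.6, -0.21 and -0.34. No source used here states the time of day at which islets were taken, and its part in the clock genes was not tested.

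Markers of other cell types were present in delta cells of both libraries at low levels. The 8 endothelial markers summed to 445 UMIs in HFD and 375 in CD delta cells, the 8 macrophage markers to 459 and 432, the 8 mesenchymal markers to 267 and 332, and the 13 acinar markers to 478 and 896. Of the endothelial genes, Kdr, Plvap and Emcn were called higher in HFD, and of the acinar genes, Cela1, Ctrb1 and Try4 were called lower. In the endothelial group of 4 HFD and 2 CD cells, Kdr had 2236 CPM, Plvap 2372 CPM and Emcn 1944 CPM. The other delta cells had 0.949, 3.98 and 3.79 CPM. These 3 calls thus rest largely on a few cells, a source of spread that the counting intervals do not cover. The Schwann cell genes Sox10, Ngfr and Foxd3 were at 0 in both libraries. Ccl5, a chemokine of T cells, was 93 UMIs in HFD and 1 UMI in CD delta cells, the furthest of all genes, and it led the delta group with Cd52 and Cd74 described above. Dcn, a proteoglycan of fibroblasts, was 12 UMIs in HFD and 99 UMIs in CD, the lowest ratio of all genes. Both were chosen after their values were seen, and the part of droplets that held another cell was not tested. With the 61 HFD and 111 CD cells that carried such markers left out, 435 genes were called higher and 318 lower in HFD.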

How the data were processed

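The authors deposited 1 matrix of raw UMI counts for HFD and 1 for CD, with no normalization. Cell Ranger 6.0.1 and the build mm10 are named in the submitters' processing notes, and software version 3.0.2 is named in the file headers. Delta cells and gene lists were chosen with earlier results of these data known.

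Counts were summed over the delta cells of each library and scaled to CPM, per 1000000 counts outside Ins1, Ins2, Gcg, Sst and Ppy. The β class had at least 20% insulin, the α class at least 5% Gcg and the PP class at least 10% Ppy. The HFD over CD ratio has an exact conditional binomial 95% interval. Genes with at least 50 UMIs in delta cells over both libraries were compared. Intervals cover counting error only. Named genes were the 12 highest and 12 lowest in HFD ranked on the end of the interval closest to equality. The 20 highest and 10 lowest in delta cells relative to every other class were also named. The 15 genes with the highest variance over mean and list members were named as well. Named diet genes needed 50 UMIs, 50 CPM and 3 times the free RNA level, and left out ribosomal, mitochondrial and unnamed genes. A multiple of the free RNA level is given for the library in which the gene was higher. A few of these genes are not reported here. Doublets were not removed, and removal by Scrublet score was an alternative.

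The procedure was tested on simulated counts. Gene positions were matched by ID to GENCODE M21 (99.62% matched) and promoters by symbol to RefSeq. Python 3.11.15, numpy 2.4.6, scipy 1.17.1, pandas 2.3.3, scanpy 1.11.5 and igraph 0.11.9 were used, and edgeR 4.0.16 in R 4.3.3 gave the TMM factors of 1 alternative.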

Additional observations from a re-analysis of the deposited data

Results flagged for a closer look

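4 genes had intervals on opposite sides of 1 in delta cells and in another endocrine class of the same 2 libraries, and the difference was not tested. Stmn1, which binds tubulin, had 72 UMIs in HFD and 38 in CD delta cells (30.5 and 12.8 CPM, a log2 ratio of 1.25). It was lower in HFD in the other classes, with 68.1 CPM in HFD and 123 in CD β cells, 19.4 and 40 CPM in α cells, and 7.5 and 22.0 CPM in PP cells. The log2 ratio in delta cells minus that in the other class was 2.101 against β cells, 2.295 against α cells and 2.802 against PP cells. Stmn1 in delta cells stood at 3.05 times the free RNA level.

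Insig1, which holds back the activation of sterol synthesis, was lower in HFD delta cells, with 25.9 CPM in HFD and 41.9 CPM in CD. It was higher in HFD in β cells, with 119.5 CPM in HFD and 77.8 in CD, and in PP cells, with 34.9 and 15.6 CPM, so the log2 ratios in delta cells minus those classes were -1.314 and -1.856. Igfbp5, a binding protein of IGF, had 26.3 CPM in HFD and 14.9 CPM in CD delta cells, against 4.41 and 9.38 CPM in β cells, a difference of log2 ratios of 1.913. Nr1d1, a repressor of the circadian clock, had 29.7 CPM in HFD and 49.3 CPM in CD delta cells, against 10.1 and 5.2 CPM in α cells, a difference of -1.687.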

How the results depend on the processing

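Without a minimum of UMIs per gene, 736 genes were called higher in HFD, and with Ins1 and Ins2 below 5% and Ppy below 2%, which left 163 HFD and 190 CD delta cells, 266 were, against 484; the other counts of genes called higher lay between 326 and 618, and those called lower between 257 and 438, against 346. The share of calls that were higher was 58.3%, and 70.6% with mitochondrially encoded genes also left out of the total. It was 51.2% with TMM factors, 50.9% with the stricter hormone limits and 49.2% per 1000000 of all UMIs. Genes at least 2-fold higher in delta cells than in every other class numbered 276, against 798 per 1000000 of all UMIs, 643 without the minimum and 149 with the stricter hormone limits, and genes 2-fold lower numbered 29, against 14 per 1000000 of all UMIs, 55 without the minimum and 46 with TMM factors. Hormones take a different share of UMIs in each class, so a total that includes them shifts every ratio between classes. On that total the largest log2 ratio of Acat1 in delta cells over another class was 0.0357, of the other sign. The difference in delta cell share, -0.44 percentage points, lay between -0.78 and -0.02 under the other settings and was 0.17 points with cells that carry markers of other cell types left out, an alternative chosen after seeing the data that removed 61 HFD and 111 CD cells. Thinning to 2000 UMIs left 24 genes of any kind with a variance over mean of at least 2 in both libraries, against 15. Of 288 values of named diet ratios under alternatives, 277 moved by less than their counting interval, 11 moved by more and 0 changed sign. Calls were lost for Atf3, at 0.31 (-0.36 to 0.97) with the stricter hormone limits, and for Dlk1, at -0.61 (-1.27 to 0.02) with at least 10% Sst, where Krtap17-1 was at 0.63. Gstp1 was at -1.84 with the stricter hormone limits, against -1.24. With 1 library for each diet, differences between mice and between diets cannot be told apart, and genes under about 50 UMIs were not compared. No paired analysis was possible with only 1 library for each diet.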

Other observations

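Several genes of other tissues stood higher in delta cells than in the other endocrine classes of both libraries. Cela1, an elastase gene best known from acinar cells, had 80.9 CPM in HFD and 144 CPM in CD delta cells, and at most 35.2 CPM elsewhere, whereas Ctrb1, another acinar gene, had 65 UMIs in HFD and 148 UMIs in CD delta cells. Sox9, a factor of ductal and progenitor cells, had 42 UMIs in HFD and 37 UMIs in CD delta cells, and at most 1.2 CPM in any other class. The ductal list did not follow it: 1 of 5 measured members was at least 2-fold over every other class. Krt19, a ductal keratin gene, had no UMIs in delta cells of either library. Per3, a component of the circadian clock, had 126 CPM in HFD and 156 CPM in CD delta cells, and at most 54.3 CPM elsewhere. Mef2c, a transcription factor known from muscle and neurons, had 228 CPM in HFD and 210 CPM in CD delta cells, and at most 13.99 CPM elsewhere.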
